A study of Mus musculus with 9 samples.

Results

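The genes described are 39 immediate early and ERK feedback genes of mouse, a list given by name, and all 39 were found among the 22068 genes counted. They were measured by RNA-seq in primary mouse embryonic fibroblasts (MEFs), connective tissue cells grown from embryos, of strain C57Bl/6 at passage 2. Cells had been electroporated with a plasmid carrying v5-tagged opossum Crx (metatherian CRX), v5-tagged human Crx (eutherian CRX) or, in controls that the labels also call v5 tagged, puromycin resistance alone. CRX is a homeodomain transcription factor best known from photoreceptors, and the question behind the experiment was how the eutherian and the metatherian proteins differ when placed in the same cells. Every culture, controls included, carried a puromycin resistance gene and went through 5 days of puromycin and, by the sample labels, 48 hours of recovery in rich medium before poly-A RNA was taken. The study's methods instead place the 48 hours between electroporation and puromycin, with an overnight culture after it, so that the time between puromycin and harvest is uncertain. Each of the 3 conditions has 3 libraries. The study's methods speak of RNA taken in triplicate from each condition and nothing states that the 3 came from separate cultures or animals, so that p-values measure only the spread between these libraries, which may be technical. The cells were mixed populations that survived selection, the age of the embryos is not given in the sources used here, and no time course after serum or a growth factor was part of the design.

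Immediate early genes are those that a cell transcribes within minutes of a stimulus without making new protein first, and most encode short-lived transcription factors. In fibroblasts their best known trigger is serum or a growth factor, which acts through RAS, RAF, MEK and the kinase ERK on factors such as ELK1 and SRF at their promoters. ERK also switches on genes that restrain it. The dual specificity phosphatases remove phosphate from MAP kinases, and the Sprouty and Spred proteins act further up, between the receptor and RAF. The list holds 7 subunits of AP-1 (Fos, Fosb, Fosl1, Fosl2, Jun, Junb and Jund), 3 related leucine zipper factors (Atf3, Maff and Mafk), 3 Egr zinc finger factors, 3 Klf factors, 3 Nr4a orphan nuclear receptors, 4 further early factors (Ier2, Ier5, Myc and Csrnp1), 4 early genes of other kinds (Ier3, Zfp36, Phlda1 and Rhob), the ETS factors Etv4 and Etv5, 5 phosphatases (Dusp1, Dusp2, Dusp4, Dusp5 and Dusp6), and 5 Sprouty or Spred genes (Spry1, Spry2, Spry4, Spred1 and Spred2).

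Promoters are shown for the member that passed the test, Spry1, and for 4 of the members that hold a motif searched, chosen after their values were seen, so that the motifs can be seen in place. RefSeq promoters on GRCm38.p6 were matched by symbol to 30 of the 39 members, as 40 windows of 250 bases before and 50 bases after a start. Each sequence below is the part before the start, on the strand of the gene, shortened where an exon of the counted annotation reaches into it, and capitals mark the motif. A CArG box, the site of SRF, lies in Zfp36 and side by side in Dusp5. The full cAMP response element TGACGTCA lies in Dusp1, and an EGR site, GCGNGGGCG, lies in Zfp36 and, read on the other strand, in Nr4a1. No motif searched was found in the Spry1 window.
Spry1 (chr3:37639697-37639845, plus strand): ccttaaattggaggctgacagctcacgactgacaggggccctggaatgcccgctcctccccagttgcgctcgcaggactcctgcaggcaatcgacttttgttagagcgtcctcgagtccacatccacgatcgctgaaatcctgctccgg
Zfp36 (chr7:28379229-28379478, minus strand): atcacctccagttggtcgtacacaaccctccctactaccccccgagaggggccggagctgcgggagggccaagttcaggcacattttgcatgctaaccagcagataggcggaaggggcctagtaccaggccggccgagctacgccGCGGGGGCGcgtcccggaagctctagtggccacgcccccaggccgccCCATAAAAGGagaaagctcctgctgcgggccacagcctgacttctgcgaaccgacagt
Dusp1 (chr17:26508473-26508722, minus strand): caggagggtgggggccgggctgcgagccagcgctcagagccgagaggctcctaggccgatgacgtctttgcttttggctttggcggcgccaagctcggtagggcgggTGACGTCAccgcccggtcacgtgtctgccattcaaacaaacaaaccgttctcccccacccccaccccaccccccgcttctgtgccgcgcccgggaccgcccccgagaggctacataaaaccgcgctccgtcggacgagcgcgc
Nr4a1 (chr15:101266596-101266845, plus strand): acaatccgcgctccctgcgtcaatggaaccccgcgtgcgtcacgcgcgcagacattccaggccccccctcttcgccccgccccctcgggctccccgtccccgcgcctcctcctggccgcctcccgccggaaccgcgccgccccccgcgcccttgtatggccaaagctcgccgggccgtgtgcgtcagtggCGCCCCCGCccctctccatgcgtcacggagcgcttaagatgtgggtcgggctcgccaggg
Dusp5 (chr19:53528895-53529144, plus strand): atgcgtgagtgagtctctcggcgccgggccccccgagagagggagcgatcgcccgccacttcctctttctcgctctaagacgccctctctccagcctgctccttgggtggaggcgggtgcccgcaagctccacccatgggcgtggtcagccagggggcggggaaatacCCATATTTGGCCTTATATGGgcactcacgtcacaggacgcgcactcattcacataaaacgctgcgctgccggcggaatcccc

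Over all 32851 RefSeq promoters of the same length, with both strands read, a CArG box was present in 1.63%, TGACGTCA in 1.79%, TGANTCA (AP-1) in 7.81%, CCGGAAGT (ETS) in 3.89%, GCGNGGGCG in 5.55% and TAATCC, the type of site that CRX prefers, in 7.06%. Among the 30 members with a window, a CArG box was found in Dusp5, Egr2 and Zfp36, TGACGTCA in Dusp1 and Maff, and TGANTCA in Csrnp1. Egr1, Egr3, Spry4, Dusp4, Fosl1, Ier2, Etv4, Myc and Phlda1 had no window and were not searched. The EGR site was found in 10 members, namely Dusp2, Fosb, Fosl2, Klf2, Klf4, Maff, Mafk, Nr4a1, Nr4a2 and Zfp36. The shares over all promoters count windows. Of the 40 member windows, 6 held a CArG box, 2 TGACGTCA, 1 TGANTCA and 10 the EGR site. Windows of 1 gene can overlap, and the CCATATATGG of Egr2 was counted in more than 1 of them. The ETS and CRX type letters were in 0 of the 40 member windows, and no motif overlapped another. A match is a string of letters and not a measured site, and a window without it says nothing of the factor.

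The libraries held 54145701 to 94699657 counts on genes. Mouse Crx drew 313 to 995 counts in the eutherian CRX libraries, 0 in the controls and 0 to 4 with metatherian CRX, so that these counts check the label of the eutherian group only. Eutherian CRX replicate 3 stood apart from its group. The SD of log2 differences over the genes kept was 0.850 between it and replicate 1, and 0.148 between replicates 1 and 2, and on the first principal component, with 56.0% of the variance, it lay at 55.0 against -27.4 and -30.9. Control replicate 3 and metatherian CRX replicate 3 lay on the same side of their groups. Fibroblast markers were abundant in every library, with a summed level over 10 genes of 25412 to 33910 normalized counts (CPM, counts scaled to the size of the library) in control, 8140 to 24231 with eutherian CRX and 9019 to 19161 with metatherian CRX. Of these 10 markers, 0 passed at an adjusted p under 0.05 in either comparison with control (edgeR). At an unadjusted p under 0.05, 7 were lower and 1 higher with metatherian CRX, beside 10.5% and 9.04% of all genes. With eutherian CRX 3 were lower, beside 6.34%. DESeq2 called 4 lower and 1 higher with metatherian CRX and 3 lower with eutherian CRX, beside 9.94% and 3.3% of all genes called either way. Leukocyte markers summed to 13.3 to 48.6, 5.46 to 26.3 and 5.26 to 11.7 CPM in the same order of groups, with 9 of 10 found. Endothelial, epithelial, skeletal muscle and glial markers stayed at or under 31.0 CPM, and Tie1 was at 0 in all 3 control libraries. The part of these marker differences in the results was not tested, and in bulk RNA fewer cells of a type and less RNA per cell cannot be told apart.

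Levels in control differed widely among the members. Per length, in FPKM, Fosl2 was highest at 85.1, followed by Junb at 64.0, Klf6 at 56.0, Egr1 at 55.7 and Jun at 51.3, and Dusp2 was lowest at 0.0531. For the test a gene needed enough counts and a mean FPKM over 2 in some condition, and 35 of the 39 were kept. Fosb, Egr2, Dusp2 and Nr4a3 were not kept. Of the 35, 33 were above the limit in all 3 conditions, whereas Egr3 passed through the CRX conditions and Csrnp1 through control alone. Fosl1 shares 1155 exon bases with Ccdc85b on the opposite strand, and the strand option of the counting is not given in the sources used here. Nr4a2 shares 165 exon bases with a predicted transcript on its own strand, and Ier3 is annotated on chromosome 17 and on 2 unplaced scaffolds, which its count pools.

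**Figure D1:**
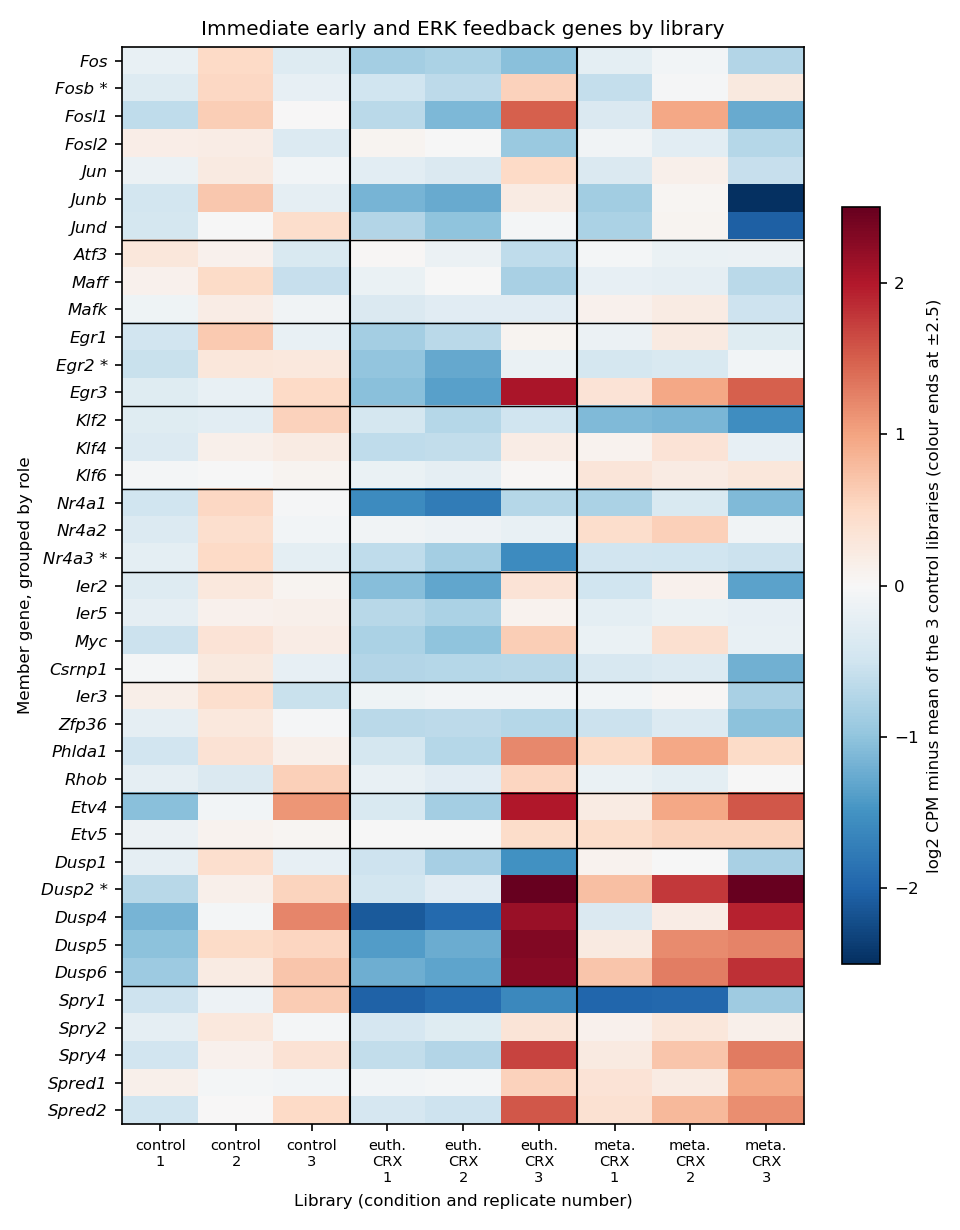
Level of each of the 39 members (rows, grouped by role) in each of the 9 libraries (columns), as log2 CPM minus the mean of the 3 control libraries, with the colour scale ending at 2.5 either way and an asterisk on the 4 members not kept for the test. Eutherian CRX replicates 1 and 2 are blue over most rows, while replicate 3 is red for Dusp4, Dusp5, Dusp6, Spry4, Etv4 and Egr3, and Spry1 is blue in all 6 CRX libraries.

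With eutherian CRX, Spry1 was the member that passed the test against control, and it fell. Fos, Dusp1, Nr4a1, Zfp36 and Csrnp1 had lower CPM in every eutherian CRX library than in any control library, but their adjusted p stayed above 0.05. Csrnp1 was kept for the test only through control, where it is high, so that its lower values are not independent of the filter. At an adjusted p under 0.05, edgeR's quasi-likelihood test called 1 of 35 members, lower, beside 0.604% of the 10100 genes tested (0.584% lower and 0.0198% higher). At an unadjusted p under 0.05, 8 of 35 members were lower and 0 higher, beside 8.56% of all genes, 6.34% lower and 2.23% higher. CPM did not overlap between the groups for 8 members, all lower (14% of all genes did not overlap, 7.8% lower and 6.21% higher). The median log2 fold change over the 35 was -0.29, and over all genes 0.00. It moved with single libraries. Removing replicate 3 of eutherian CRX gave -0.64, removing its replicate 2 gave 0.02, and removing control replicate 2 gave -0.11. The medians of the same-number differences were -0.26, -0.90 and 0.24 for numbers 1, 2 and 3.

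Spry1 (chr3:37639846-37644599) encodes Sprouty 1, an inhibitor of signalling from receptor tyrosine kinases to ERK. Its normalized counts were 21.7, 28.4 and 47.9 CPM in control replicates 1 to 3, 7.63, 8.18 and 10.1 with eutherian CRX, and 7.85, 7.97 and 16.7 with metatherian CRX. All 6 CRX libraries were below all 3 controls, and the eutherian and metatherian values overlapped. Against control, eutherian CRX gave a log2 fold change of -1.84 ± 0.19 (SE, n = 3 libraries a group), with an adjusted p of 0.027 by edgeR's quasi-likelihood test over 10100 genes. The metatherian value was -1.61 ± 0.18 with an adjusted p of 0.069, above the threshold. The direct difference, metatherian minus eutherian, was 0.24 ± 0.18 on the log2 scale, with an adjusted p of 0.67 (edgeR). Without the replicate block, the eutherian fold change was -1.92 and its adjusted p 0.196 (edgeR), so that the call was lost. It was also lost with only the 6 libraries compared, at an adjusted p of 0.0639 (edgeR). Of 9 settings other than single libraries left out, 7 kept the call. These were the 2 other scalings, the 2 other filters, DESeq2, voom, and all libraries numbered 3 left out. The call did not hold with any control library, any eutherian CRX library or metatherian CRX replicate 1 left out, with log2 fold changes from -1.98 to -1.63 over all 9 such fits and adjusted p from 0.025 to 0.274 (edgeR), and it was kept without metatherian CRX replicate 2 or 3. With metatherian CRX, the adjusted p of edgeR was 0.00476 once eutherian CRX replicate 3 was removed and 0.0189 once metatherian CRX replicate 3 was. Of the same 9 settings, 4 called Spry1 with metatherian CRX. These were DESeq2, voom, only the 6 libraries compared, and all libraries numbered 3 left out.

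Fos (chr12:85473901-85477269), the AP-1 subunit whose transcript is a standard mark of recent stimulation, was at 17.1, 27.5 and 15.6 CPM in control, 10.8, 11.2 and 9.40 with eutherian CRX, and 16.4, 18.6 and 11.6 with metatherian CRX. The eutherian libraries lay below all others, and the metatherian libraries overlapped the controls. The log2 fold change of eutherian CRX against control was -0.90 ± 0.16, with an adjusted p of 0.088 (edgeR). For metatherian CRX it was -0.36 ± 0.16, with an adjusted p of 0.29 (edgeR). The other AP-1 subunits had lower levels in part, and none passed. Junb was at 80.7, 178 and 94.9 CPM in control, 49.7, 46.1 and 128 with eutherian CRX, and 60.6, 115 and 14.2 with metatherian CRX, so that both CRX groups were split by their replicate 3, in opposite directions. Over the 6 subunits tested, 4 fold changes were below 0 with eutherian CRX and 5 with metatherian CRX. At an unadjusted p under 0.05, Fos was lower with eutherian CRX, and Fosl2 was lower with metatherian CRX at -0.36.

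Among the related leucine zipper factors, Atf3, Maff and Mafk all had fold changes below 0 in both comparisons with control. Maff, which pairs with CNC factors and lacks an activation domain, had -0.33 with eutherian CRX and -0.37 with metatherian CRX, both at an unadjusted p under 0.05 and with overlapping groups. Egr1 (chr18:34861207-34864956), a zinc finger factor induced together with Fos, was at 116, 255 and 142 CPM in control, 90.1, 101 and 168 with eutherian CRX, and 146, 190 and 130 with metatherian CRX. The groups overlapped throughout, and the log2 fold changes were -0.46 ± 0.30 and -0.09 ± 0.30, with adjusted p of 0.77 and 0.90 (edgeR). The second of these turned to 0.25 without control replicate 2 and to 0.10 without metatherian CRX replicate 3.

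The Nr4a receptors are nuclear receptors without a known ligand whose activity follows their amount. Nr4a1 (chr15:101254213-101274795) was at 64.6, 131 and 89.6 CPM in control, 30.5, 27.2 and 55.7 with eutherian CRX, and 52.8, 70.2 and 42.5 with metatherian CRX. The eutherian libraries lay below all controls and the metatherian libraries overlapped them. Its log2 fold changes were -1.29 ± 0.34 and -0.74 ± 0.34, with adjusted p of 0.29 and 0.28 (edgeR). Nr4a3, not kept by the level filter, was at 10.7, 17.99 and 10.7 CPM in control, 8.14, 7.04 and 4.26 with eutherian CRX, and 9.10, 8.98 and 8.77 with metatherian CRX. In a fit of the 14599 genes that pass filterByExpr alone, its log2 fold change with eutherian CRX was -1.0045 with an adjusted p of 0.18 (edgeR). Egr2 stood at -0.80 with an adjusted p of 0.39 in that fit, and Fosb at -0.18. Dusp2, a nuclear phosphatase of ERK, stood the other way at 1.69 with eutherian CRX and 2.49 with metatherian CRX, with adjusted p of 0.59 and 0.15 (edgeR), at 2 to 109 counts a library.

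Zfp36 (chr7:28376784-28379228) encodes tristetraprolin, which binds AU-rich elements and speeds the decay of many early transcripts. It was at 35.1, 49.3 and 40.7 CPM in control, 26.1, 26.2 and 25.1 with eutherian CRX, and 28.4, 32.4 and 20.4 with metatherian CRX. Both CRX groups lay below the controls. The log2 fold changes were -0.68 ± 0.16 and -0.63 ± 0.16, with adjusted p of 0.20 and 0.12 (edgeR). Csrnp1 (chr9:119971163-119985134), a nuclear protein first found as induced by AXIN1, was at 20.2, 24.9 and 18.3 CPM in control, 12.6, 12.7 and 12.9 with eutherian CRX, and 15.9, 16.5 and 9.12 with metatherian CRX. Both CRX groups again lay below the controls, with log2 fold changes of -0.71 ± 0.19 and -0.63 ± 0.19 and adjusted p of 0.30 and 0.16 (edgeR). Csrnp1 was kept for the test through control alone, so that neither value is independent of the filter. The direct differences between the CRX proteins were 0.05 ± 0.16 for Zfp36 and 0.08 ± 0.19 for Csrnp1, smaller than their errors.

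Dusp1 (chr17:26505591-26508472), a nuclear phosphatase of p38, JNK and ERK, was at 39.8, 61.8 and 40.2 CPM in control, 32.3, 25.9 and 16.1 with eutherian CRX, and 49.4, 45.7 and 26.4 with metatherian CRX. The eutherian libraries lay below all controls. The log2 fold change was -0.98 ± 0.21 with an adjusted p of 0.16 for eutherian CRX and -0.27 ± 0.21 with an adjusted p of 0.52 for metatherian CRX (edgeR), and the latter ranged from -0.55 to -0.09 with single libraries left out. DESeq2's Wald test, the alternative count model, called 6 members against control with eutherian CRX, all lower, beside 3.3% of all genes. They were Csrnp1, Dusp1, Fos, Nr4a1, Spry1 and Zfp36, of which Csrnp1 was kept through control alone.

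**Figure D2:**
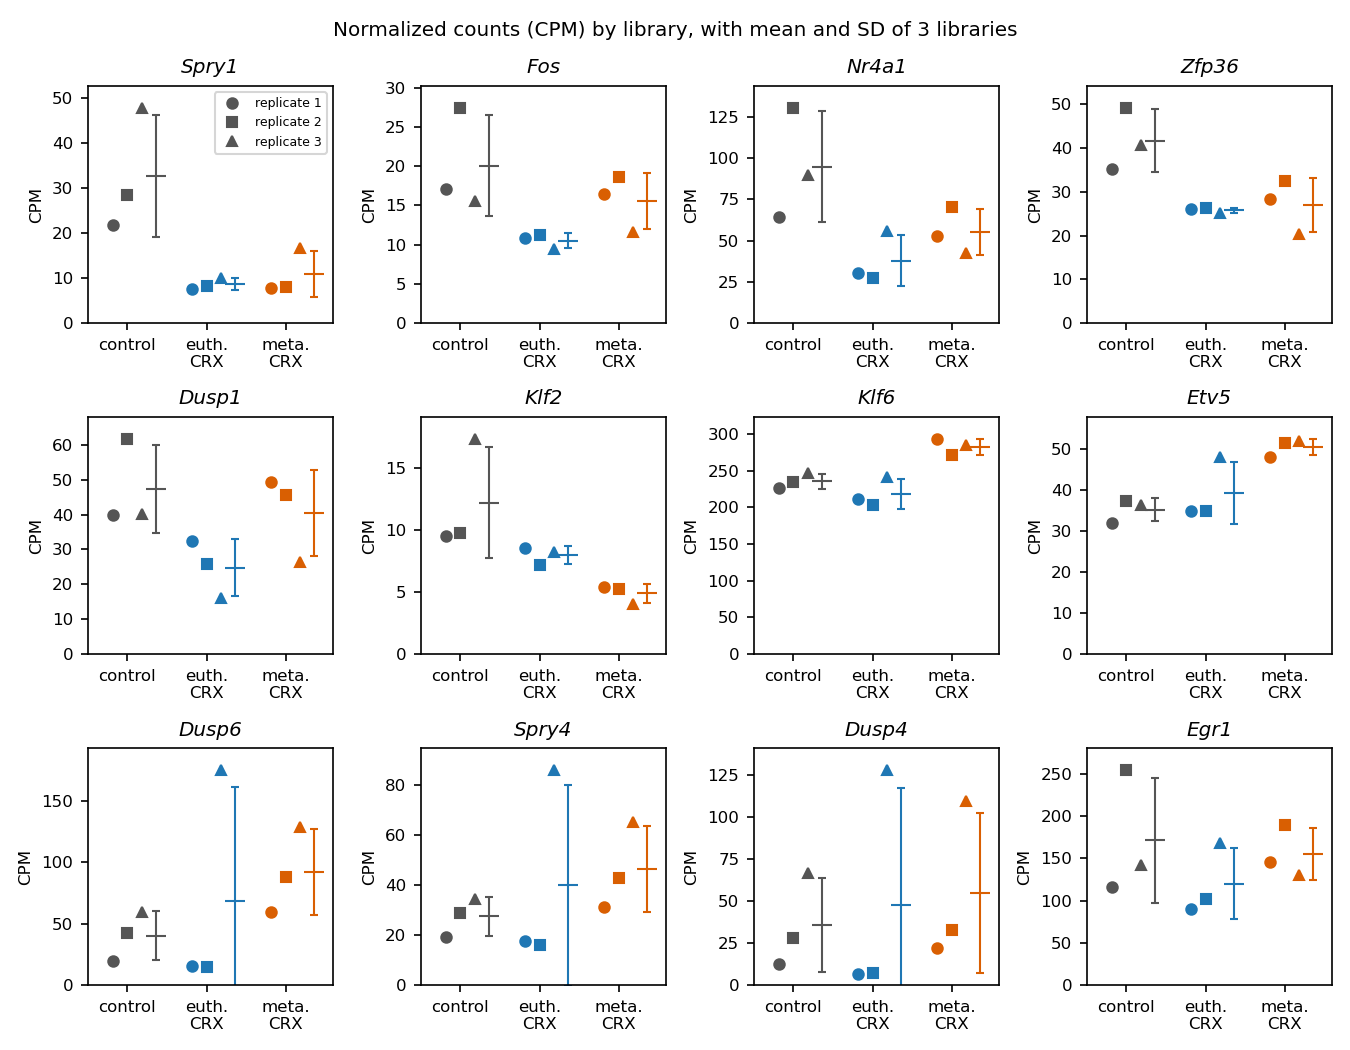
Normalized counts in CPM (linear axis from 0) of 12 members in each library, with the marker shape giving the replicate number and the cross and bar giving the mean and SD of 3 libraries (bars that would pass below 0 end at the axis). Spry1, Fos, Nr4a1, Zfp36 and Dusp1 sit lower in the eutherian CRX libraries than in every control library, whereas Dusp6, Spry4 and Dusp4 are far higher in eutherian CRX replicate 3 than in its other replicates. Dusp4 was added after its values were seen, in place of Csrnp1.

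With metatherian CRX, 0 of 35 members passed against control at an adjusted p under 0.05 (edgeR), beside 0.0297% of all genes. At an unadjusted p under 0.05 there were 11, 5 higher and 6 lower, beside 19.5% of all genes, 9.04% higher and 10.5% lower. The higher members were Etv4, Etv5, Klf6, Spred1 and Spred2, and the lower were Csrnp1, Fosl2, Klf2, Maff, Spry1 and Zfp36. Csrnp1, kept through control alone, is not independent of the filter here either. Groups did not overlap for 9 members, 5 higher and 4 lower. Among all genes 23.3% did not overlap, 11% higher and 12.3% lower, a share near that of the members. The median log2 fold change was -0.09 over the members and -0.01 over all genes. DESeq2 called 5, with Etv5 higher and Csrnp1, Klf2, Spry1 and Zfp36 lower, beside 9.94% of all genes.

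Klf2 and Klf6, both zinc finger factors of the Krüppel-like family, stood on opposite sides. Klf2 (chr8:72319062-72321654) was at 9.52, 9.73 and 17.4 CPM in control, 8.59, 7.16 and 8.26 with eutherian CRX, and 5.43, 5.27 and 3.998 with metatherian CRX. The order was control, then eutherian, then metatherian CRX with no overlap between groups. Its log2 fold change with metatherian CRX was -1.28 ± 0.27, with an adjusted p of 0.097 (edgeR), and with eutherian CRX -0.59 ± 0.27, with an adjusted p of 0.62 (edgeR). Klf6 (chr13:5861489-5870393) was at 227, 234 and 247 CPM in control, 211, 203 and 241 with eutherian CRX, and 293, 271 and 285 with metatherian CRX. The metatherian libraries lay above all 6 others. The log2 fold change was 0.26 ± 0.10, with an adjusted p of 0.21 (edgeR). Klf4 was at 0.10 with metatherian CRX.

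Etv4 and Etv5 are ETS factors of the PEA3 group, whose transcripts follow ERK activity in many tissues. Etv5 (chr16:22381313-22439570) was at 31.9, 37.3 and 36.3 CPM in control, 34.96, 34.8 and 47.9 with eutherian CRX, and 48.1, 51.4 and 51.9 with metatherian CRX. The metatherian libraries were the 3 highest, narrowly above eutherian CRX replicate 3. The log2 fold change with metatherian CRX was 0.52 ± 0.12, with an adjusted p of 0.11 (edgeR), against 0.15 ± 0.12 with eutherian CRX, which was 0.02 once eutherian CRX replicate 3 was removed. Etv4 stood at 0.94 with metatherian CRX, with an unadjusted p of 0.0496 (edgeR).

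Several ERK feedback genes varied widely between libraries. Dusp6 (chr10:99263231-99267489), a cytoplasmic phosphatase with a preference for ERK, was at 19.5, 42.2 and 59.1 CPM in control, 15.6, 14.5 and 175.7 with eutherian CRX, and 59.2, 88.3 and 129.2 with metatherian CRX. Eutherian CRX replicates 1 and 2 were the lowest of the 9 libraries and replicate 3 the highest. Metatherian CRX gave 1.28 ± 0.59 against control, with an adjusted p of 0.29 (edgeR), and was above control in 3 of 3 pairs of the same replicate number. Eutherian CRX gave 0.08 ± 0.62 with an adjusted p of 0.99 (edgeR), and the sign turned without replicate 3, to -0.96. Spry4 (chr18:38586265-38601268), a Sprouty protein, was at 19.2, 28.8 and 34.3 CPM in control, 17.4, 16.0 and 86.1 with eutherian CRX, and 31.0, 42.9 and 65.2 with metatherian CRX. Its order was that of Dusp6 in the eutherian group, and its log2 fold changes were 0.18 ± 0.39 and 0.71 ± 0.38, with adjusted p of 0.96 and 0.36 (edgeR). Without eutherian CRX replicate 3 the first was -0.43.

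Eutherian CRX replicate 3 exceeded the mean of replicates 1 and 2 by 18.1-fold in Dusp4, 12.4-fold in Dusp5, 11.7-fold in Dusp6, 9.52-fold in Egr3, 6.14-fold in Etv4, 5.20-fold in Fosl1, 5.15-fold in Spry4 and 4.04-fold in Spred2, members chosen after their values were seen. Dusp2, at 4 counts in each of those replicates and 109 in replicate 3, was 26.5-fold higher. The median ratio over all genes was 0.996. The same library held 0.853 times the mean for Fos, 0.553 for Dusp1 and 1.28 for Spry1. Spry2 at 1.60 and Spred1 at 1.56 were raised in it too, but by less. Its level was the highest of the 9 for 13 of 35 members, beside 18% of all genes. Control replicate 2 was highest for 10 members, beside 5.92% of all genes, and metatherian CRX replicate 3 lowest for 10, beside 20.6%. The spread from the lowest to the highest library had a median of 1.55 on the log2 CPM scale over the members and 0.690 over all genes.

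Within same-numbered libraries, 6 of 35 members were higher with eutherian CRX than in control for number 1 (17.1%, beside 52.7% of all genes), 2 for number 2 (5.71%, beside 48.9%) and 18 for number 3 (51.4%, beside 48.6%). With metatherian CRX, 20, 19 and 13 of 35 were higher than in control, or 57.1%, 54.3% and 37.1% beside 49.7%, 49.3% and 48% of all genes. Lower in all 3 pairs were 15 members with eutherian CRX, beside 17.4% of all genes, and 0 were higher in all 3, beside 16%. With metatherian CRX, 12 were higher in all 3 pairs and 13 lower, beside 22.2% and 25.1%. The 12 were Dusp4, Dusp5, Dusp6, Spry2, Spry4, Spred1, Spred2, Etv4, Etv5, Egr3, Klf6 and Phlda1. Between the CRX proteins, 6 members were higher with metatherian CRX in all 3 pairs and 1 lower, beside 18.6% and 13.6%.

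**Figure D3:**
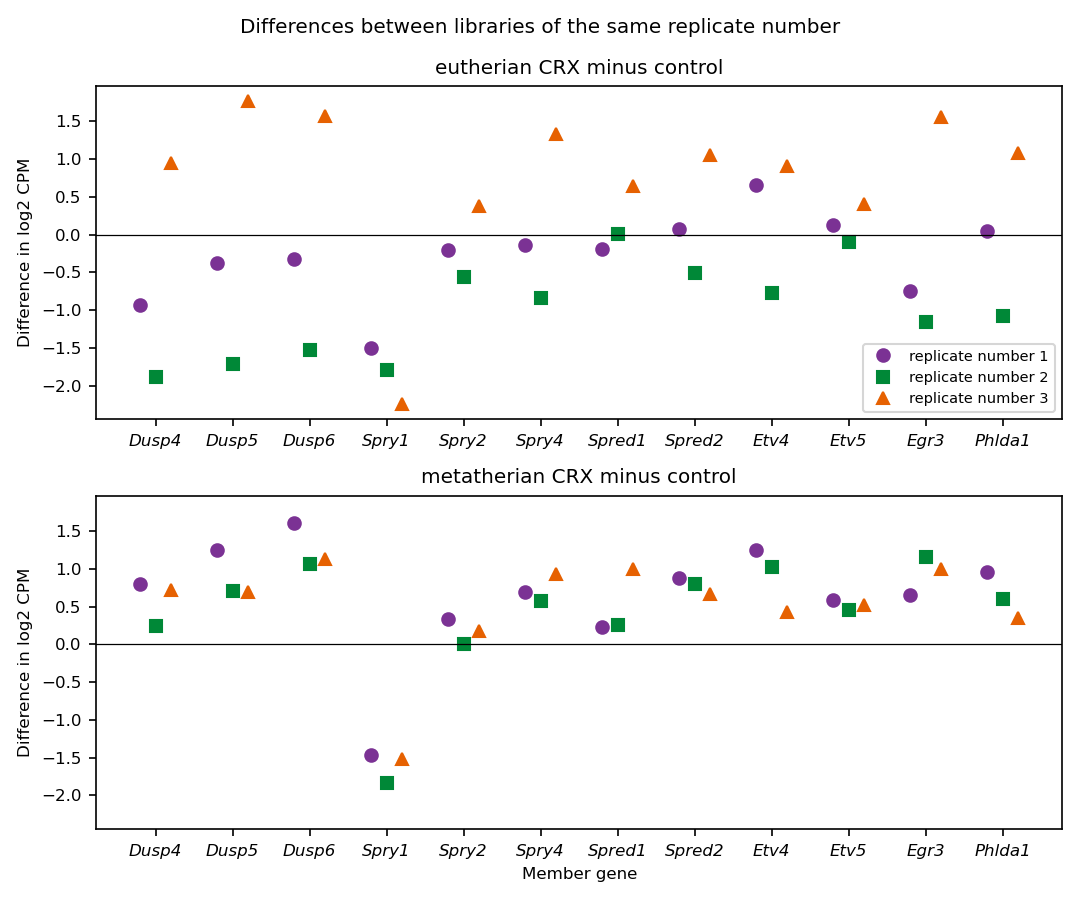
Difference in log2 CPM between CRX and control libraries of the same replicate number for 12 members, chosen after their values were seen, 8 of them phosphatase, Sprouty or Spred genes. In the upper panel (eutherian CRX) number 3 lies above 0 for every gene but Spry1, and in the lower panel (metatherian CRX) all 3 numbers lie above 0 for every gene except Spry1, a pattern that the choice of genes fixed in part. Dusp1, not drawn, differed by 0.31, -0.44 and -0.61 with metatherian CRX and by -1.32 for number 3 with eutherian CRX.

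Left out, eutherian CRX replicate 3 changed which feedback genes passed. In that fit edgeR called 7 members between metatherian CRX and control, beside 8.83% of all genes, namely Dusp6, Egr3, Etv5, Spred2 and Spry4 higher and Klf2 and Spry1 lower. Egr3, whose mean FPKM was under the limit of 2 in control, was kept through a CRX group in which it was high, so that its calls are not independent of the filter. The log2 fold change of Dusp6 was 1.25 with an adjusted p of 0.0223, and that of Spry4 0.74 with an adjusted p of 0.0438 (edgeR). Between metatherian and eutherian CRX it called 6, all higher with metatherian CRX, beside 3.47% of all genes, namely Dusp4 at 1.96, Dusp5 at 1.96, Dusp6 at 2.21, Egr3 at 1.88, Spred2 at 1.03 and Spry4 at 1.17. With all 9 libraries these differences were 1.06, 0.78, 1.20, 0.90, 0.53 and 0.53 in the same order, none with an adjusted p under 0.05 (edgeR), and for number 3 each of the 6 was below 0, from -1.07 to -0.23. Between eutherian CRX, with 2 libraries left, and control it called 0 members, beside 0% of all genes, and 19 of 35 members had an unadjusted p under 0.05, beside 785 of the 10108 genes tested. With all libraries numbered 3 left out, a setting chosen after seeing the data that leaves 2 libraries a group, 8 of 36 members were called lower with eutherian CRX (2.94% of all genes called), 14 were called with metatherian CRX, 7 each way (22.2%), and 22 between the CRX proteins, 21 of them higher with metatherian CRX (22.5%).

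**Figure D4:**
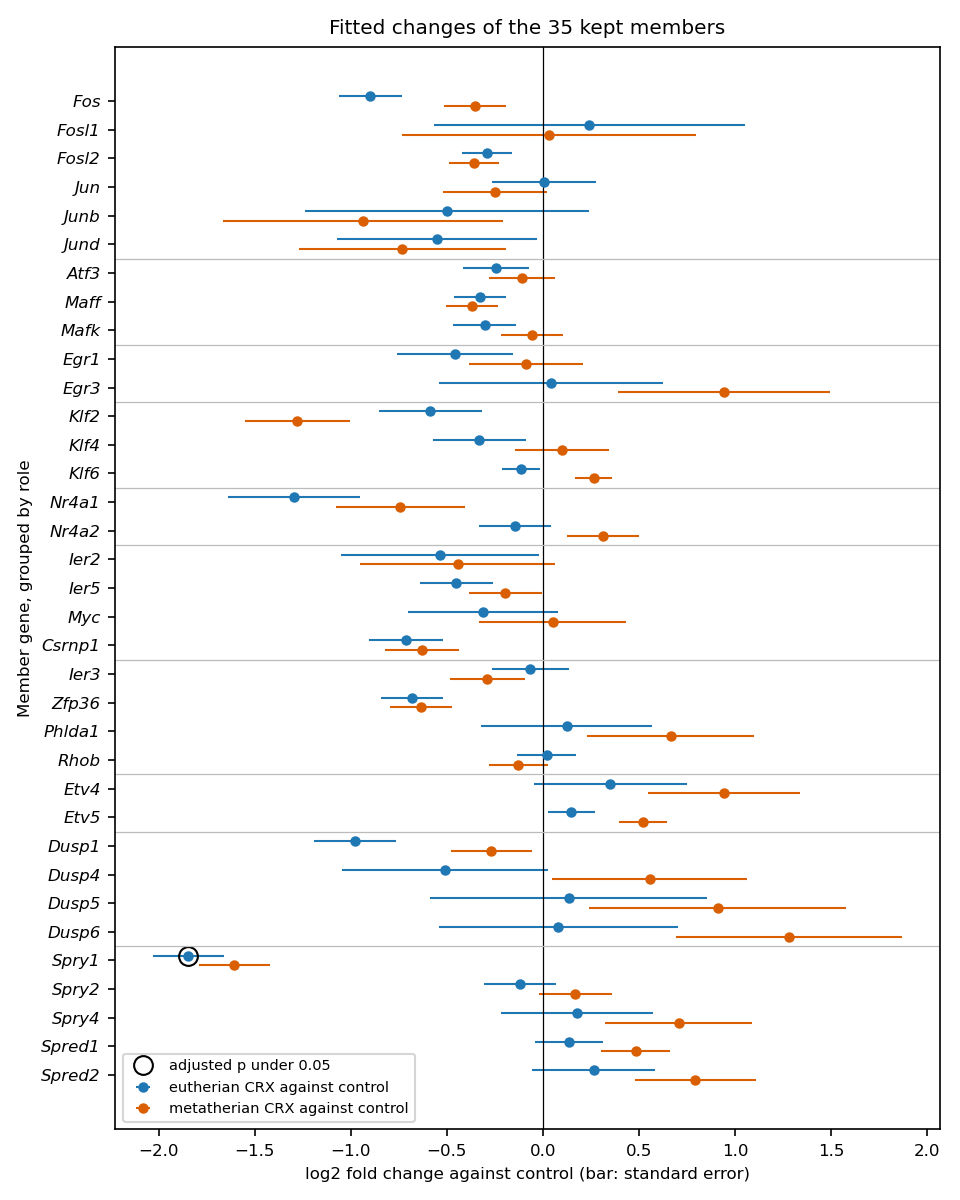
Fitted log2 fold change against control of the 35 members tested (points, with bars of 1 standard error), for eutherian and metatherian CRX, which share the control libraries. The circled point, Spry1 with eutherian CRX at -1.84, is the value that passed an adjusted p under 0.05, and the widest bars belong to Fosl1, Junb, Dusp5 and Dusp6.

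Compared directly, metatherian and eutherian CRX differed for 0 of 35 members at an adjusted p under 0.05 (edgeR), beside 0% of all genes, and for 6 at an unadjusted p under 0.05, beside 11.5%, with 7.41% higher and 4.13% lower. Dusp1, Etv5, Fos, Klf6 and Nr4a2 were higher with metatherian CRX and Klf2 lower. Klf6 gave 0.38 ± 0.10, with an adjusted p of 0.28, and was the member that DESeq2 called, beside 3.14% of all genes. Dusp1 gave 0.71 ± 0.21 and Fos 0.54 ± 0.16, both with an adjusted p of 0.32 (edgeR) and higher with metatherian CRX in 3 of 3 number pairs. Etv5 gave 0.37 ± 0.12 and Klf2 -0.69 ± 0.27, with adjusted p of 0.35 and 0.41 (edgeR). The groups did not overlap for 5 members, 4 of them higher with metatherian CRX and 1 lower, beside 6.23% and 5.3% of all genes. Over the 35 members the median difference was 0.35 on the log2 scale, and over all genes -0.01. It was 0.55 without eutherian CRX replicate 3 and 0.11 without eutherian CRX replicate 2, and 0.47, 0.73 and -0.39 for numbers 1, 2 and 3. By replicate number, 29, 30 and 10 of 35 members were higher with metatherian CRX for numbers 1, 2 and 3, or 82.9%, 85.7% and 28.6% beside 48.7%, 49.6% and 56.5% of all genes.

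Of the pathway around these genes, 36 of 37 components and regulators of the ERK cascade were tested, and 0 passed in any comparison (edgeR). They run from RAS and RAF genes to ribosomal S6 kinases and the SRF partners, and include restraining genes such as Rasa1, Nf1 and Spred3. Higher values in this list therefore do not by themselves mean more ERK signalling. At an unadjusted p under 0.05, 6 were higher and 2 lower with metatherian CRX, and 1 was higher and 1 lower with eutherian CRX, beside the 19.5% and 8.56% of all genes given above. Directly between the CRX proteins, 5 were higher with metatherian CRX and 1 lower, beside 7.41% and 4.13% of all genes. DESeq2 called 4 higher with metatherian CRX than in control (Mapk6, Nras, Rasa1 and Rps6ka3), beside 9.94% of all genes. It called 0 with eutherian CRX, beside 3.3%, and 2 between the CRX proteins, beside 3.14%. Over the 36 genes tested, the median log2 fold change was 0.08 with metatherian CRX and 0.03 with eutherian CRX. Srf itself was at 55.4, 65.5 and 74.5 CPM in control, 47.6, 38.3 and 53.2 with eutherian CRX, and 44.8, 52.3 and 33.3 with metatherian CRX, below the controls in all 6 CRX libraries, with log2 fold changes of -0.49 and -0.58 and adjusted p of 0.61 and 0.22 (edgeR). Of 36 other growth factor early response genes, 33 were tested. Socs3, an inhibitor of cytokine signalling through JAK and STAT, fell in both comparisons, by 0.79 on the log2 scale with eutherian CRX (adjusted p 0.039) and by 1.22 with metatherian CRX (adjusted p 0.042, edgeR). Gadd45b, a stress response gene that acts on p38 signalling, fell by 1.30 with metatherian CRX (adjusted p 0.036, edgeR). These calls of Socs3 and Gadd45b were lost without the replicate block and with any control library, eutherian CRX replicate 1 or 2 or metatherian CRX replicate 1 left out, where edgeR called 0 of all genes against control. The metatherian calls were also lost by removing metatherian CRX replicate 2, and the eutherian call of Socs3 by removing replicate 3 of its group or by fitting the 6 libraries compared alone. At an unadjusted p under 0.05, 13 of the 33 were lower and 0 higher with eutherian CRX, and 12 lower and 1 higher with metatherian CRX, with medians of -0.32 and -0.34. Among all genes 6.34% were lower and 2.23% higher with eutherian CRX, and 10.5% and 9.04% with metatherian CRX. DESeq2 called 6 lower with eutherian CRX, and 8 lower and 1 higher with metatherian CRX, beside 3.3% and 9.94% of all genes called either way. Of 10 other dual specificity phosphatases, 9 were tested and 0 passed (edgeR). At an unadjusted p under 0.05, 3 were higher with metatherian CRX, namely Dusp9, Dusp14 and Dusp18, beside 9.04% of all genes. With eutherian CRX 0 were higher, beside 2.23%. DESeq2 called Dusp14 and Dusp18 against control with metatherian CRX, beside 9.94% of all genes.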

How the data were processed

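RNA-seq of MEFs gave 9 libraries, 3 each of control, eutherian CRX and metatherian CRX. The authors aligned the reads with STAR to mm10 (GRCm38) and deposited raw counts per gene made with featureCounts, without normalization or pooling. The annotation release, the strand option and how multi-mapped reads were handled are not given in the sources used here. Columns of per-sample values that matched no sample numbered 0.

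Counts were analysed with edgeR 4.0.16 in R 4.3.3. Of 22068 genes, 14599 passed filterByExpr and 10100 also reached a mean FPKM over 2 in some condition. FPKM used the summed exon length of the count table. Libraries were scaled by TMM (0.960 to 1.11), and all 9 entered 1 quasi-likelihood fit in which replicate number was a block. P-values were adjusted over the 10100 genes by Benjamini-Hochberg, and a gene was called below 0.05. Each standard error is the size of the fold change (log2) over the root of its F statistic. CPM used TMM library sizes, and plotted log2 CPM a prior count of 2. A count of 0 allows up to 3 counts, counting error only.

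The members and lists were chosen with earlier results of these data known. Genes given in full are members called in a comparison, the 5 with the smallest p in each, and Fos, Egr1, Dusp6 and Spry4, and other genes are named from counts or after their values were seen. The alternatives were no block, relative-log-expression and upper-quartile scaling, DESeq2 1.42.0, limma 3.58.1 voom with library quality weights, 2 other filters, only the 6 libraries compared, and each library left out. All libraries numbered 3 left out was added after seeing the data. The fit was tested on simulated data.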

Additional observations from a re-analysis of the deposited data

How the results depend on the processing

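A block by replicate number was used because the study states that samples were made as pairs and linked when analysed, but no source ties the pairs to the numbers. Deviations from the group mean correlated above 0.1 in 8 of 9 same-numbered pairs of libraries (lowest 0.0034) and in 5 of 18 others, and 7 of 9 libraries matched a library of their own number best, which leaves the pairing of samples by number not shown. Without the replicate block, 0 members and 0 of all genes were called in each comparison, and members at an unadjusted p under 0.05 numbered 6 with metatherian CRX (11 with the block) and 3 between the CRX proteins (6 with it). Over all genes these fell from 1969 to 1317 and from 1165 to 646.

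Members called, in the order metatherian against control, eutherian against control, and metatherian against eutherian CRX, were 0, 1 and 0 as reported. They were 5, 6 and 1 with DESeq2, 22, 16 and 25 with voom, 3, 0 and 0 with only the 6 libraries compared, and 14, 8 and 22 without the libraries numbered 3. Leaving out single libraries gave 0 to 7, 0 to 1 and 0 to 6. Members at an unadjusted p under 0.05 (11, 8 and 6 as reported) were 24, 21 and 25 with voom, 17 with metatherian CRX in the 6 libraries compared, 22, 24 and 26 without number 3, and 5 to 20, 6 to 19 and 1 to 21 with single libraries left out. Over all genes these rose too, from 1969, 865 and 1165 to 5392, 3376 and 5608 with voom and to 3626, 1615 and 3731 without number 3, and were 2048 with metatherian CRX in the 6 libraries and 1023 to 2597, 509 to 1372 and 437 to 2129 with single libraries left out. Genes called over all genes (3, 61 and 0) were 1004, 333 and 317 with DESeq2, 4665, 1697 and 4883 with voom, 398 and 0 against control with the 6 libraries, 109 with eutherian CRX without a filter, 2221, 295 and 2258 without number 3, and 0 to 893, 0 to 117 and 0 to 351 with single libraries left out. Voom gave metatherian CRX replicate 3 a weight of 0.120 and metatherian CRX replicate 1 4.71. The cause of these differences was not tested.

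With single libraries left out, the median over the members ranged from -0.21 to 0.10 with metatherian CRX, from -0.64 to 0.02 with eutherian CRX and from 0.11 to 0.55 between the CRX proteins. Of the values of the 12 genes given in full, 17 changed sign. Dusp6 with eutherian CRX was -0.51 with voom, -0.10 with the 6 libraries and -0.94 without number 3, and -0.96 to 0.73 with single libraries left out. Spry4 was -0.17 with voom, -0.49 without number 3 and -0.43 to 0.60. Egr1 with metatherian CRX ranged from -0.28 to 0.25, and the direct differences of Zfp36 from -0.068 to 0.21 and of Csrnp1 from -0.065 to 0.30. The other values kept their sign, 554 also their side of the threshold, with 67 newly past it and 9 no longer past it.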
